A study of Mus musculus with 9 samples.

Results

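In a mouse count table, 4 rows, D10Wsu102e, Ccdc24, Gm17114 and B4galt2, were followed here as readings of a pair of genes that lie on the opposite DNA strand: Aldh1l2 for the row D10Wsu102e, and Slc6a9 for the remaining 3. These 4 rows were chosen, among 53379 in the table, because their counts were higher in cells treated with the glutamine antagonist DON than in control cells, so every difference between DON and control given for them is a description and carries no test. All 4 were among the 4731 rows with enough counts to be tested. The cells were MOVAS, an immortalised line of mouse aortic smooth muscle cells, and all 9 libraries came from cultures in the same medium with serum, antibiotics and geneticin. The 3 control libraries were untreated. Another 3 came from cells given 50 mM DON (6-diazo-5-oxo-L-norleucine) for 24 h, and the last 3 from cells given that DON dose together with 2 mM glutamate. Doses are as the labels state them, but the product number printed beside glutamate is one sold as a dipeptide of alanine and glutamine. Which of these was added cannot be told from the labels, so glutamate is here the labels' word for the supplement. One cell line was used, and the labels do not say whether the 3 libraries of a group were separate cultures, so p-values measure no more than the library-to-library spread, possibly a technical one.

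Aldh1l2 encodes the mitochondrial form of 10-formyltetrahydrofolate dehydrogenase, which oxidises the formyl group carried by folate to carbon dioxide and makes NADPH while it returns tetrahydrofolate to the pool. Slc6a9 encodes GLYT1, a sodium- and chloride-driven transporter in the cell membrane that brings in glycine. Glycine and serine feed the folate-bound one-carbon units used in making purines, thymidylate and methionine, and glycine also enters glutathione and haem. Both genes are textbook members of the transcriptional response to amino acid starvation, and DON blocks enzymes that take nitrogen from glutamine, among them glutaminase and the amidotransferases of nucleotide synthesis.

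The rows reach the 2 genes through short stretches of shared sequence, given here on mm10 with the GENCODE M21 annotation. Aldh1l2 lies on the minus strand at chr10:83487450-83534140. The plus-strand row D10Wsu102e ends inside it, and their exons share chr10:83487450-83488505, which is 1056 bp of noncoding sequence at the 3′ end of Aldh1l2. This contact rests on the last exon that GENCODE gives D10Wsu102e, of 122802 bp, whereas the RefSeq model of the same gene ends 118614 bp before Aldh1l2. Aldh1l2 was the only GENCODE gene opposite the exons of D10Wsu102e, but reads from elsewhere along that long exon would enter the same row, and their part was not tested.

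Slc6a9 lies on the plus strand at chr4:117834506-117875198, and 3 minus-strand rows cross it near its 3′ end. Ccdc24 shares 1429 bp with its exons, of which 363 bp are coding. Gm17114, annotated as a noncoding RNA, shares 511 bp, its whole exon length, split into 126 bp at the 5′ end of Slc6a9 and 385 bp near the 3′ end. B4galt2 shares 46 bp of noncoding sequence. All 385 bp of the 3′ stretch of Gm17114 and all 46 bp of B4galt2 also lie in exons of Ccdc24, so Ccdc24 is not independent of either. Ccdc24 and B4galt2 share 1417 bp of exon in all, most of it outside Slc6a9, and Gm17114 and B4galt2 share 0 bp.

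The coding part of the contact between Slc6a9 and the rows Ccdc24 and Gm17114 is shown so that it can be located in the transcript. Most of the contact is noncoding and is not printed, and B4galt2 covers none of the coding part. The sequence is the plus strand of mm10, read 5′ to 3′ from the GENCODE M21 transcript without the stop codon. Capitals mark the 66 coding bases that lie opposite both Ccdc24 and Gm17114, and lower case marks coding bases opposite Ccdc24 but not Gm17114.
chr4:117867759-117867929: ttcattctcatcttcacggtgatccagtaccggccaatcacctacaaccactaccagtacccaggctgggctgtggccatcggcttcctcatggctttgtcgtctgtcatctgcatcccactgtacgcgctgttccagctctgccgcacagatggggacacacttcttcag
chr4:117868048-117868239: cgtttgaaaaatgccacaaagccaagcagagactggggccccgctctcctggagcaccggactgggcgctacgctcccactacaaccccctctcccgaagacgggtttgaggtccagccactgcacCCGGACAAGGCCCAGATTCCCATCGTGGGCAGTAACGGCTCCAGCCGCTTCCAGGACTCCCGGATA
The first stretch is 171 bases and the second 192 bases, so the coding sequence read by Ccdc24 is 363 bases and the rest of its overlap is noncoding. Of the RefSeq promoter windows on GRCm38.p6, the 3 of Slc6a9 held 0 matches to TGATGNAA on either strand, where 1304 of 32851 windows (3.97%) held one. Aldh1l2 was not matched in that table.

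Counts assigned to rows summed to between 1132822 and 1342286 per library, the lowest being DON plus glutamate replicate 3. Libraries of 1 group differed from each other beyond sampling noise, with chi-square per degree of freedom of 2.08 to 3.28. As a check of the cell label, 8 smooth muscle markers were listed and 2 were measurable by the opposite-strand reading, namely Tagln at 216 to 407 counts and Smtn at 608 to 1081 counts per library. Des also had an opposite row, Gm15179, but that row held 0 counts in every library and was not tested. Under their own names, the row Tagln held 68 to 104 counts, Acta2 1 to 14 and Lmod1 2 to 7. The rows named Myh11, Cnn1, Des, Smtn and Myocd held at most 3 counts. Of 4 markers each for endothelial cells, leukocytes and epithelium, 0 were measurable by that reading, and their own rows held at most 3, 11 and 1 counts. Pdgfra, a fibroblast marker, had 3 to 22 counts. The label could therefore be checked only in part.

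Aldh1l2, as read from D10Wsu102e, was several times higher in both treated groups than in control. The row held 704, 757 and 787 counts in the control libraries, 3288, 3526 and 3257 in the DON libraries, and 3163, 3140 and 2684 with DON plus glutamate. As CPM (counts scaled by each library's total over the tested rows and its TMM factor), the level was 583.9 ± 37.4 in control, 2551 ± 151 with DON and 2364 ± 23.9 with DON plus glutamate (SD, n = 3). Every treated library stood far above every control library, and among tested rows the mean level moved from rank 400 in control to rank 39 with DON and rank 50 with DON plus glutamate. The difference between DON and control was log2 2.13 ± 0.08 (SE; 95% interval 1.97 to 2.28), or 4.37-fold, the 8th largest rise among tested rows. In bulk RNA, more transcript per cell and a different make-up of the cells cannot be told apart.

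Slc6a9, as read from Ccdc24, was likewise higher in all 6 treated libraries. Ccdc24 held 732, 772 and 701 counts in control, 2497, 2581 and 2692 with DON, and 2715, 2600 and 2202 with DON plus glutamate. Its level was 572.7 ± 30.2 CPM in control, 1968 ± 89.2 CPM with DON and 1975 ± 61.2 CPM with DON plus glutamate (SD, n = 3). DON and control differed by log2 1.78 ± 0.07 (SE; 95% interval 1.63 to 1.93), or 3.44-fold, and the libraries of these groups did not overlap.

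Gm17114, the second row read as Slc6a9, had 458, 491 and 429 counts in control, 1416, 1396 and 1471 with DON, and 1512, 1534 and 1297 with DON plus glutamate. Its level went from 357.9 ± 25.5 CPM in control to 1085 ± 28.1 CPM with DON and 1142 ± 3.18 CPM with DON plus glutamate (SD, n = 3). The difference between DON and control was log2 1.60 ± 0.08 (SE; 95% interval 1.44 to 1.76), or 3.03-fold, the smallest of the 4 rows.

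B4galt2, the row with the shortest contact, held 26, 17 and 30 counts in control, 92, 81 and 82 with DON, and 94, 75 and 80 with DON plus glutamate. Its level was 18.9 ± 5.13, 64.5 ± 3.73 and 65.8 ± 8.62 CPM in the 3 groups (SD, n = 3), and the control libraries stayed below all treated ones. DON and control differed by log2 1.76 ± 0.19 (SE; 95% interval 1.36 to 2.16), or 3.39-fold. Counts of 17 to 94 make this the least precise of the rows, with an SE over 2 times that of Ccdc24.

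**Figure D1:**
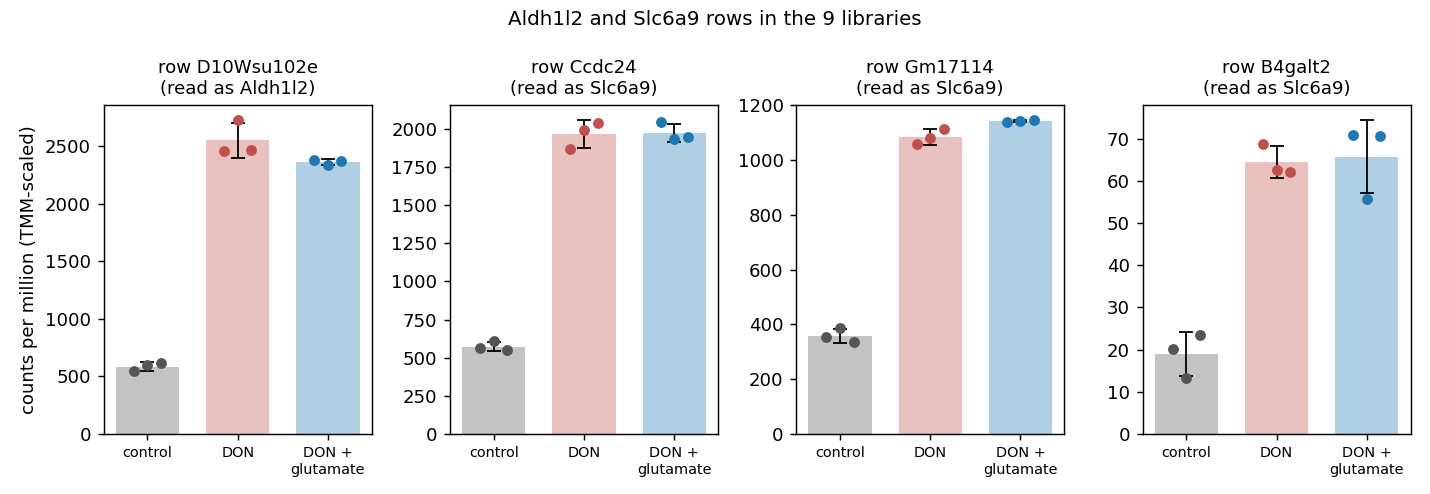
CPM (vertical axis, linear from 0, one panel per row) of D10Wsu102e, read as Aldh1l2, and of Ccdc24, Gm17114 and B4galt2, read as Slc6a9, in control, DON and DON plus glutamate; bars are means of 3 libraries, error bars SD, and points single libraries. In every panel all 6 treated libraries lie above the 3 controls, as with Ccdc24 at 572.7 CPM in control and 1968 CPM with DON.

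All 4 rows were higher in DON than in control without overlap of libraries, where 11.5% of the 4731 tested rows were, and all 4 had an adjusted p under 0.05, where 2.64% of tested rows were called higher and 3.68% lower. The rows were chosen on this contrast, so nothing is read from these counts. By size of rise, Ccdc24, B4galt2 and Gm17114 were 11th, 12th and 17th. The median of all tested rows was log2 0.01.

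Per length of sequence shared with the opposite gene, the order of the rows changed with treatment. In control the level per kilobase was 700 ± 50.0 CPM for Gm17114, 553 ± 35.4 CPM for D10Wsu102e, 412 ± 112 CPM for B4galt2 and 401 ± 21.1 CPM for Ccdc24 (SD, n = 3). With DON it was 2416 ± 143 CPM per kilobase for D10Wsu102e, 2122 ± 54.9 CPM for Gm17114, 1403 ± 81.1 CPM for B4galt2 and 1377 ± 62.4 CPM for Ccdc24. D10Wsu102e thus stood below Gm17114 in control and above it with DON, while B4galt2 and Ccdc24 lay within 1 SD of each other in both groups. With DON plus glutamate D10Wsu102e was at 2238 ± 22.6 and Gm17114 at 2235 ± 6.23 CPM per kilobase, closer than their SD, and B4galt2 at 1430 ± 187 and Ccdc24 at 1382 ± 42.8. These values assume that all reads of a row came from the shared stretch, which was not tested. The 46 bp of B4galt2 are few beside a sequencing read, so its level per length depends most on how reads at the edge were counted.

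What the supplement labelled glutamate changed while DON was present is asked by DON plus glutamate against DON. By edgeR's quasi-likelihood test 0 of the 4 rows passed, where 0.148% of tested rows (7 of 4731) were called in either direction. A count of 0 is near that share, so it does not show that the 4 rows were unchanged. At an unadjusted p under 0.05 the count of the 4 rows was also 0, against 318 of all tested rows, and it was 0 with the DESeq2 Wald test and with limma voom. These DON libraries had also served in choosing the rows. Ccdc24 differed by log2 0.01 ± 0.07 (SE; 95% interval -0.14 to 0.15, edgeR adjusted p = 0.985), with libraries at 1868, 1996 and 2040 CPM in DON and 2046, 1935 and 1945 CPM with glutamate. The interval bounds any change of Slc6a9 by this row to a small part of the difference from control. B4galt2 differed by 0.02 ± 0.15 (95% interval -0.30 to 0.34, edgeR adjusted p = 0.982).

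The other 2 rows leaned in opposite directions. D10Wsu102e was at 2460, 2726 and 2468 CPM with DON and at 2383, 2337 and 2371 CPM with DON plus glutamate, so each glutamate library was below each DON library. The difference was log2 -0.11 ± 0.07 (SE; 95% interval -0.25 to 0.03) and did not pass (edgeR adjusted p = 0.852). Gm17114 was at 1059, 1079 and 1115 CPM with DON and at 1139, 1142 and 1146 CPM with DON plus glutamate, all 3 higher. That difference, 0.07 ± 0.07 (95% interval -0.07 to 0.22), did not pass either (edgeR adjusted p = 0.903). Among all tested rows, 6.07% were lower without overlap and 5.39% higher without overlap in this contrast.

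DON plus glutamate against control asks whether the difference from untreated cells was present with glutamate added. All 4 rows were higher, where 1.42% of tested rows were called higher and 1.82% lower. This contrast shares the control libraries with the one that chose the rows. D10Wsu102e was higher by log2 2.02 ± 0.08 (SE; 95% interval 1.86 to 2.17), or 4.05-fold (edgeR adjusted p = 7.48e-16). Ccdc24 was higher by 1.79 ± 0.07 (1.63 to 1.94), or 3.45-fold (edgeR adjusted p = 4.31e-15). For Gm17114 the difference was 1.67 ± 0.08 (1.52 to 1.83), or 3.19-fold (edgeR adjusted p = 3.33e-14), and for B4galt2 it was 1.79 ± 0.19 (1.39 to 2.19), or 3.45-fold (edgeR adjusted p = 6.03e-07). Each of the 4 rows was higher in 3 of 3 treated libraries than in every control library, where 9.87% of tested rows were.

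**Figure D2:**
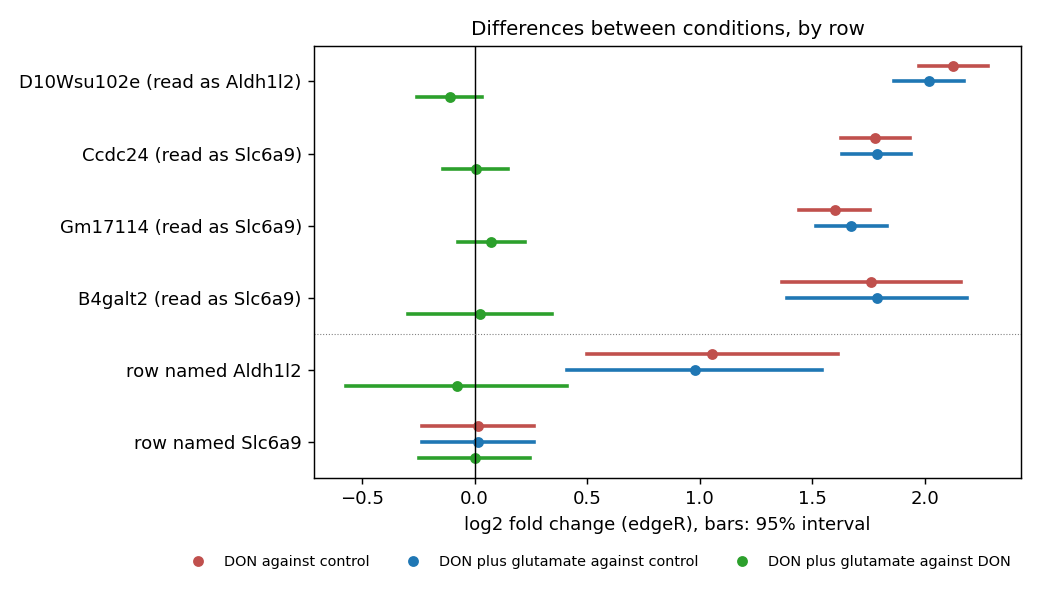
Difference in log2 CPM (horizontal axis) for the 4 rows and for the rows named Aldh1l2 and Slc6a9, in each of the 3 contrasts between control, DON and DON plus glutamate; points are edgeR estimates from 3 libraries a group and bars 95% intervals. The 4 rows lie between 1.60 and 2.13 in DON against control and between -0.11 and 0.07 in DON plus glutamate against DON.

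The 3 rows read as Slc6a9 were next compared with each other within each library, a ratio that needs no scaling factor. Gm17114 held 0.612 to 0.636 counts per count of Ccdc24 in control, 0.541 to 0.567 with DON and 0.557 to 0.590 with DON plus glutamate. The control ratios thus lay above those of both treated groups, and the ratio in DON was lower than in control by a log2 difference of -0.18, given without a test. Between DON plus glutamate and DON the ratio differed by 0.07, and the groups overlapped (exact permutation p = 0.2, two-sided; adjusted over 9 comparisons, 0.6). Against control, the ratio with DON plus glutamate was lower, at log2 -0.11 without overlap (exact permutation p = 0.1, adjusted 0.45). With 3 libraries a group, 0.1 is the smallest p this test can give.

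B4galt2 kept a ratio to Ccdc24 of 0.0334 ± 0.0105 in control, 0.0329 ± 0.0034 with DON and 0.0333 ± 0.0039 with DON plus glutamate (SD, n = 3). The spread in control came with the lowest count of the row, 17 in control replicate 2, and without that library the ratio in DON the ratio in DON was lower than in control, at log2 -0.25. Relative to Gm17114, B4galt2 was at 0.0538, 0.0596 and 0.0576 in the 3 groups. For DON plus glutamate against DON, exact permutation p was 1.0 for the first of these ratios and 0.8 for the second. Counts of the 3 rows may hold the same reads more than once: of 600 pairs of rows in the table where 1 lies wholly inside the exons of another on the same strand, 161 had counts in the inner row, and the inner row exceeded the outer in 4 of 1449 library values. Among the 10 of these pairs with at least 100 counts in the inner row it did so in 1 pair and 2 of 90 values. How reads in shared stretches were assigned was not tested.

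The balance of the 2 genes was measured as counts of D10Wsu102e per count of the 3 Slc6a9 rows summed. These 3 rows share exon sequence, so the sum may hold the same reads more than once, and the size of the ratio depends on that. It was 0.579, 0.591 and 0.678 in control, 0.821, 0.869 and 0.767 with DON, and 0.732, 0.746 and 0.750 with DON plus glutamate. Aldh1l2 therefore stood higher relative to Slc6a9 in DON than in control, by log2 0.41 or 1.33-fold, as a description. With DON plus glutamate the ratio was below that of every DON library (log2 -0.14; exact permutation p = 0.1, adjusted over 3 comparisons 0.1) and above that of every control library (log2 0.27; exact permutation p = 0.1, adjusted 0.1). Neither can pass 0.05 with 3 libraries a group. With Ccdc24 alone as the Slc6a9 reading, DON plus glutamate and DON differed by log2 -0.11 with exact permutation p = 0.2.

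**Figure D3:**
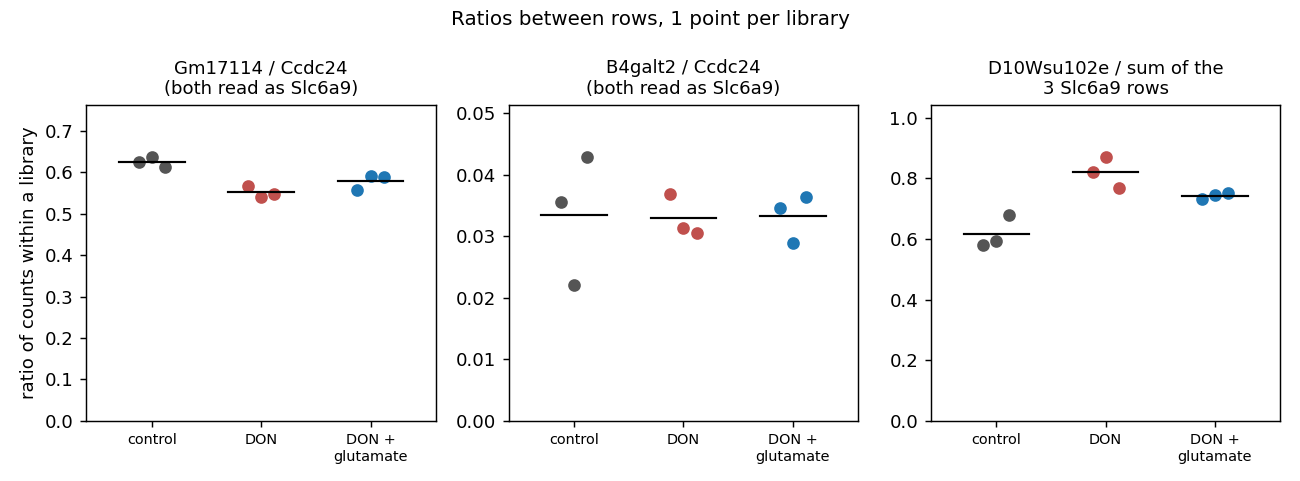
Ratios of counts within each library (vertical axes, no unit) for Gm17114 to Ccdc24, B4galt2 to Ccdc24 and D10Wsu102e to the summed Slc6a9 rows; points are libraries and lines group means. D10Wsu102e to Slc6a9 lies at 0.579 to 0.678 in control and 0.767 to 0.869 in DON, with DON plus glutamate between them at 0.732 to 0.750.

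The rows that carry the names Aldh1l2 and Slc6a9 were set beside the rows opposite them as a check of the strand reading. By that reading they stand for the genes D10Wsu102e and Ccdc24, and whether they do was not tested. The row named Aldh1l2 held 14, 16 and 12 counts in control, 31, 25 and 34 with DON, and 22, 34 and 26 with DON plus glutamate. Of its counts and those of D10Wsu102e together, it thus took 1.50% to 2.07% in control and 0.691% to 1.07% in the treated libraries. Its exons span 7503 bp, those of D10Wsu102e 123179 bp, and only 1056 bp are shared, so unlike stretches are compared. Over 423 genes with at least 5000 counts in their opposite row, the median share in the gene's own row was 1.05%, from 0.035% at the 5th percentile to 42.0% at the 95th percentile. Choosing genes by a high opposite-row count favours a low own-row share, so these values do not test the reading. The row named Aldh1l2 was higher by log2 1.06 ± 0.27 (SE) with DON and by 0.98 ± 0.27 with DON plus glutamate, both against control. The second difference passed narrowly (edgeR adjusted p = 0.0480) and missed in 11 of 17 alternative analyses, where its adjusted p ranged from 0.0276 to 0.239.

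The row named Slc6a9, which that reading gives to the gene Ccdc24, behaved differently from the rows opposite it. It held 246, 186 and 181 counts in control, 198, 234 and 203 with DON, and 208, 234 and 171 with DON plus glutamate, with all groups overlapping. Its level was 159.0 ± 26.5, 161.0 ± 17.5 and 160.6 ± 12.1 CPM (SD, n = 3). DON and control differed by log2 0.02 ± 0.12 (SE; 95% interval -0.23 to 0.26), and DON plus glutamate and DON by 0.00 ± 0.12 (edgeR adjusted p = 0.999). Set beside Ccdc24, the row named Slc6a9 took 25.2%, 19.4% and 20.5% of the 2 rows' counts in control and 7.01% to 8.31% in the treated libraries. For control replicate 1 the exact 95% interval, which covers counting error only, was 22.5% to 28.0%. Read under its own name, the table would therefore give Slc6a9 a level near 160 CPM in every group. Which strand setting was used in counting is not given in the sources used here, and no recount from reads was possible.

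**Figure D4:**
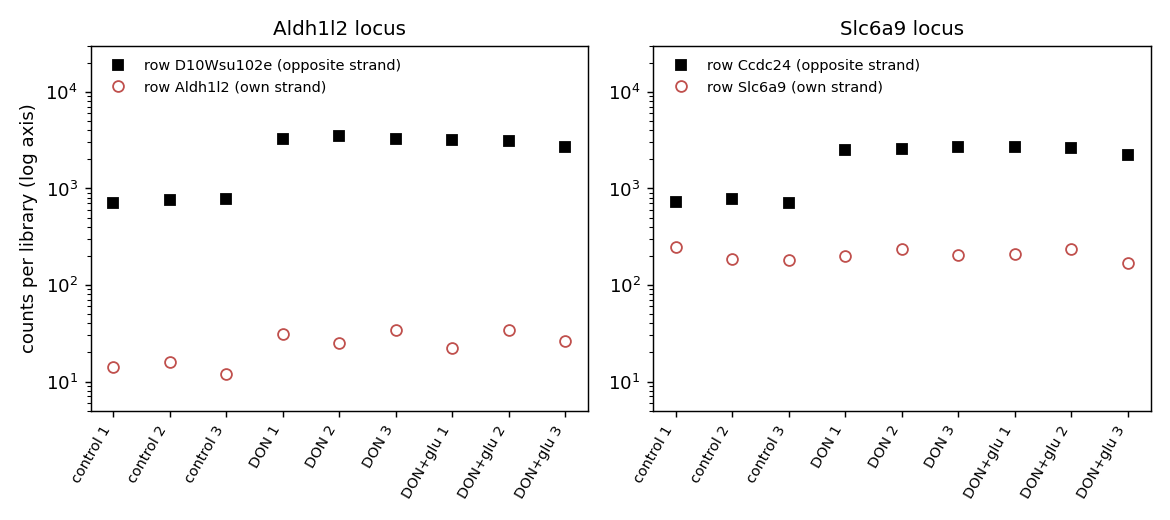
Counts per library (vertical axis, log scale) of the rows named Aldh1l2 and Slc6a9 and of the rows opposite them, D10Wsu102e and Ccdc24; points are the 9 libraries by group. The row named Aldh1l2 goes from 12 to 16 counts in control to 25 to 34 with DON and 22 to 34 with DON plus glutamate. D10Wsu102e goes from 704 to 787 in control to 2684 to 3526 in treated libraries. The row named Slc6a9 stays at 171 to 246.

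Other genes of the pathways around Aldh1l2 and Slc6a9 were read in the same way, each from the row opposite it, and most of them had no such row. In all, 26 listed genes other than these 2 were tested, and in DON against control 6 were higher and 0 lower, where 6.32% of tested rows were called (125 rows higher and 174 lower, or 180 higher and 126 lower when scaled by library totals alone). Their median was log2 0.07. Limma voom and the DESeq2 Wald test also called 6 each, but the DESeq2 set was not the same. It included Srr (DESeq2 Wald adjusted p = 0.0379), which edgeR did not call. It lacked Pck2, for which DESeq2 gave no adjusted p, so the 2 methods cannot be compared on that gene.

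Of 10 genes listed as mitochondrial one-carbon enzymes, the set that contains Aldh1l2, 4 had an opposite row and 3 were tested. Apart from Aldh1l2, 0 passed by edgeR, DESeq2 or voom, although both had an unadjusted p under 0.05. Of all tested rows, edgeR called 6.32%, and 916 of 4731 had an unadjusted p under 0.05. Sardh, which strips a methyl group from sarcosine to give glycine, was at log2 0.30 ± 0.10 (SE; edgeR adjusted p = 0.0766), and 3 of its 18 alternative analyses called it. Pdpr, on the list although it helps regulate pyruvate dehydrogenase and is not itself a one-carbon enzyme, was at 0.22 ± 0.10 (edgeR adjusted p = 0.236). Mthfd2, Mthfd1l and Shmt2, the enzymes that carry one-carbon units through the mitochondrion, are not analysed here.

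In the cytosolic folate and methionine cycles 7 of 28 listed genes were tested and 1 rose, where 2.64% of tested rows were called higher. Shmt1, which moves a carbon from serine to tetrahydrofolate and yields glycine, went from 48.3 ± 4.5 CPM in control to 77.7 ± 16.1 CPM with DON (SD, n = 3), by log2 0.68 ± 0.16 (SE; edgeR adjusted p = 0.00895, row Smcr8, 184 bp). Without control replicate 1 (edgeR adjusted p = 0.0614) or DON replicate 2 (0.0951) that call was lost, and over all alternatives the adjusted p ran from 0.00228 to 0.0951. With DON plus glutamate Shmt1 was at 0.46 ± 0.16 against control (edgeR adjusted p = 0.141). The other 6 genes lay between -0.47 and 0.08. The lowest was Aldh1l1, the cytosolic relative of Aldh1l2, with an SE of 0.42 (edgeR adjusted p = 0.603). Its levels were low, 10.9 ± 2.0 CPM in control and 7.8 ± 5.6 CPM with DON (SD), and the libraries overlapped. Mat2a, which makes S-adenosylmethionine, was at -0.17 ± 0.08 (edgeR adjusted p = 0.270).

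Of 21 genes for making or breaking down serine and glycine, 3 were tested and 0 passed by edgeR, with 2 at an unadjusted p under 0.05. The shares over all tested rows were 6.32% called and 916 of 4731 at an unadjusted p under 0.05. Of the 3 genes, DESeq2 called 1 and voom 0. Srr, which interconverts the mirror forms of serine, was at log2 0.27 ± 0.08 (SE; edgeR adjusted p = 0.0522) and passed in 9 of 18 alternatives, with a range of 0.0223 to 0.316. Psph, the last enzyme of serine synthesis, was at -0.08 ± 0.18 and Serinc3 at -0.23 ± 0.10. Among 30 transporters of glycine, serine and other neutral amino acids, 2 were tested, Slc6a9 and Slc38a9, the lysosomal arginine sensor, which was at -0.67 ± 0.32 (edgeR adjusted p = 0.25). Most transporters of glycine other than Slc6a9 thus could not be read.

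The tested genes that use glycine or one-carbon units further on did not pass, but they were few. For glutathione and haem synthesis, 3 of 19 genes were tested (Gclm, Gss and Ppox), at log2 -0.15 to -0.01. For purine and pyrimidine synthesis and the glutamine amidotransferases, 4 of 22 were tested, at -0.08 to 0.28. By edgeR 0 of either set passed, by DESeq2 and voom likewise 0, and at an unadjusted p under 0.05 there were 0 and 2. EdgeR called 6.32% of all tested rows, and 916 of 4731 had an unadjusted p under 0.05. With so few genes, a count of 0 called is near that share.

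The set in which several genes rose was the amino acid starvation response, which holds both Aldh1l2 and Slc6a9. Among 49 listed genes 9 were tested, and of the 7 other than these, 5 rose and 0 fell, where 2.64% of all tested rows were called higher and 3.68% lower, with a median of log2 1.16 against 0.01 for all tested rows. Atf5, a stress transcription factor, was up by 1.71 ± 0.11 (SE; edgeR adjusted p = 5.65e-11), from a row sharing 82 bp with it. Mars, the methionyl-tRNA synthetase, rose by 1.23 ± 0.09 (edgeR adjusted p = 6.91e-10) and Ddit3, the stress transcription factor CHOP, by 1.16 ± 0.13 (edgeR adjusted p = 6.44e-07). Mars and Ddit3 are each other's opposite row and share 68 bp. By size, D10Wsu102e, Ccdc24 and B4galt2 lay above all 7 of these genes, and Gm17114, at 1.60, lay below Atf5. Differences between these sizes were not tested.

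The remaining pair that rose were Pck2 and Cebpb, singled out after their values were seen. Pck2, the mitochondrial enzyme that makes phosphoenolpyruvate, was higher by log2 1.44 ± 0.27 (SE; edgeR adjusted p = 0.00154), from a row sharing 53 bp with it. Its levels were low, at 9.1 ± 2.5 CPM in control and 24.8 ± 1.4 CPM with DON (SD). Cebpb, a transcription factor that pairs with Atf4, was higher by 0.33 ± 0.09 (edgeR adjusted p = 0.0309). The Cebpb call was lost without any 1 of control replicates 1, 2 and 3 (0.0760, 0.113 and 0.0993) or DON replicates 2 and 3 (0.0855 and 0.103), with no filter on low counts (0.0866) and with the replicate number as a block (0.0501), in a range of 0.00688 to 0.113. Aars, an alanyl-tRNA synthetase, was at 0.74 ± 0.42 and did not pass (edgeR adjusted p = 0.365). DESeq2 called 4 of the 7 and voom 5. DESeq2 gave no adjusted p for Pck2, and Pck2 passed in all 17 alternatives that gave one.

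Across all lists, 0 of the 26 genes passed in DON plus glutamate against DON by edgeR, DESeq2 or voom, and 2 had an unadjusted p under 0.05. Of all tested rows, edgeR called 0.148% in this contrast, and 318 of 4731 had an unadjusted p under 0.05. The counts for the lists are near these shares, so nothing particular to the listed genes is read from them. In DON plus glutamate against control 4 were higher and 0 lower, namely Atf5, Ddit3, Mars and Pck2, where 3.23% of tested rows were called. These 4 passed against control both with and without glutamate, and the 2 contrasts share the control libraries.

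**Figure D5:**
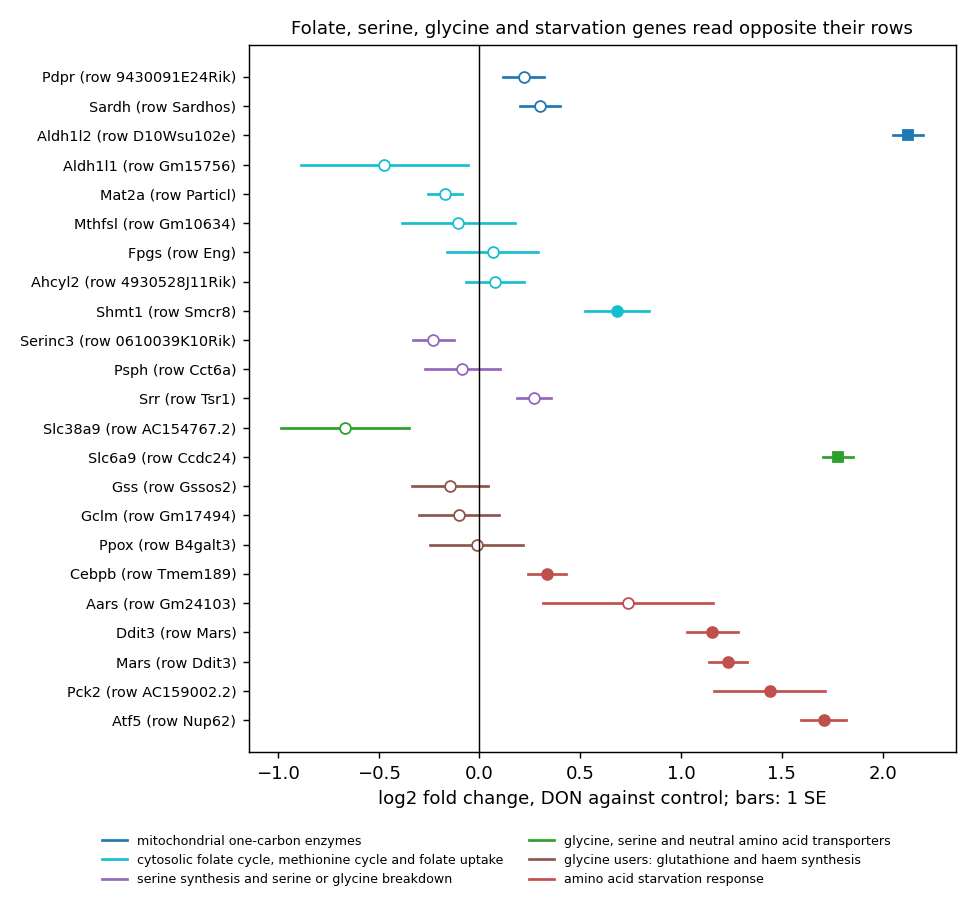
Difference in log2 CPM between DON and control (horizontal axis, ± 1 SE, 3 libraries a group) for tested genes of the folate, serine, glycine and starvation lists, each read from the row opposite it; squares are Aldh1l2 and Slc6a9, filled circles genes with edgeR adjusted p under 0.05 and open circles the rest. Outside the starvation response, where Atf5 is at 1.71 and Mars at 1.23, Shmt1 at 0.68 is the one filled circle.

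The rows most like the 2 genes in pattern were found by the root-mean-square difference in log2 CPM over the 9 libraries, each row centred on its control mean, among 3435 rows with a mean of at least 20 counts. This is a description over libraries that also chose the 4 rows. Nearest to D10Wsu102e were Krtcap2 (read as Trim46, at 0.191), Cln3 (Apobr, 0.214), Gm20652 (Arhgef2, 0.257), Eif3c (no single opposite gene, 0.267) and Gm11534 (B4galnt2, 0.299). Trim46 encodes a microtubule-binding protein, Apobr a receptor for lipoprotein particles and Arhgef2 an activator of RhoA. Ccdc24 itself was at 0.251 from D10Wsu102e, so 2 of the 5 rows were closer to Aldh1l2 than Slc6a9 was.

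Nearest to Ccdc24 were E230016M11Rik (read as Gadd45a, 0.132), Gm20652 (Arhgef2, 0.160), Nup62 (Atf5, 0.183), Eif3c (0.190) and Il4i1 (no single opposite gene, 0.209). With DON, Nup62 held 1720 to 2259 counts and Il4i1 1777 to 2313, so these rows may hold the same reads, which was not tested. Gadd45a encodes a small protein induced by DNA damage and growth arrest. The Slc6a9 rows Gm17114 and B4galt2 were at 0.127 and 0.245 from Ccdc24, so a different gene, Gadd45a, came about as close to Ccdc24 as Gm17114 did. Of the rows named here, those of Apobr, Trim46, Arhgef2 and Gadd45a differed between DON and control by log2 2.45 ± 0.15, 2.14 ± 0.20, 1.86 ± 0.11 and 1.72 ± 0.09 (SE).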

How the data were processed

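Per the submitters' processing notes, the authors used STAR, HTSeq and mm10. Versions, library kit and strand setting are not given in the sources used here. They deposited whole-number counts of reads per row in 1 table of 53379 rows and 9 sample columns. Per the labels' protocols, RNA came from silica columns and was sequenced by BGI. Rows were matched by ID to GENCODE M21 (53274 matched), and a row was read as a protein-coding gene where it shared at least 50 bp of exon with exactly 1 on the other strand (4655 rows, 4161 genes). For B4galt2, with 46 bp, the reading as Slc6a9 came with the choice of the 4 rows.

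Counts were tested as rows with edgeR 4.0.16 in R 4.3.3: filterByExpr (4731 rows kept), TMM factors and the two-sided quasi-likelihood test, in 1 fit of 3 groups with 6 residual degrees of freedom. P-values were Benjamini-Hochberg adjusted over all tested rows, with 0.05 as threshold. SEs are those implied by the test. Ratios were compared with exact permutation tests (scipy 1.17.1). Row totals give the precision and not the sequencing depth. The 4 rows, the gene lists and the tests were chosen with earlier results of these data known. Named were the 4 rows, the rows of the same genes' own names, measured genes of the one-carbon, folate, serine and transporter lists, up to 3 per other list with the smallest p, and the 5 rows nearest in pattern. Aars, Pck2 and Cebpb fall outside this and were chosen after their values were seen. Alternatives were DESeq2 1.42.0 size factors and Wald test, limma 3.58.1 voom, library totals, other filters, the replicate block, only the groups compared, 1 row per opposite gene, and each library left out. Same-numbered libraries correlated at -0.195 to 0.154, so the numbers were not taken to pair them. In the folate list 1 gene is counted but its own values are not reported here.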

Additional observations from a re-analysis of the deposited data

How the results depend on the processing

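Take DON against control as the first contrast, DON plus glutamate against DON as the second, and that group against control as the third. The first chose the 4 rows, so its values over the alternatives (18 each, 17 for Gm17114 and B4galt2) are given as a description: D10Wsu102e ranged from log2 2.07 to 2.17, Ccdc24 from 1.75 to 1.83, Gm17114 from 1.55 to 1.65 and B4galt2 from 1.56 to 1.94. In the third, which shares the control libraries, all 4 rows passed in each alternative, and in the second 0 did. The replicate number as a block gave 221, 6 and 117 rows called in the 3 contrasts, where the fit without it gave 299, 7 and 153. It ended the calls of Cebpb and of the row named Aldh1l2 (adjusted p = 0.0807, in the third). By the numbers, 2 of 9 libraries were closest to a library of their own number. Leaving out 1 library gave 173 to 318, 1 to 11 and 88 to 178 rows called. In the first contrast the counts without control replicates 1 and 2 and DON replicates 2 and 3 were 183, 176, 173 and 182. In the second they were 1 without either DON replicate 3 or replicate 2 of DON plus glutamate, and 11 without replicate 3 of the latter, and in the third 99 without control replicate 2 and 88 without DON plus glutamate replicate 2. In the second contrast no filter gave 15, the DESeq2 Wald test 2, voom 3, only the groups compared 3 and 1 row per opposite gene 1. Library totals gave 104 higher and 50 lower in the third, against 67 and 86. With 1 library left out, the second contrast ran from log2 -0.032 to 0.037 for Ccdc24, -0.040 to 0.13 for B4galt2 and -0.22 to 0.086 for the row named Aldh1l2. The row named Slc6a9 ran from -0.079 to 0.16, -0.064 to 0.093 and -0.063 to 0.16 over the 3 contrasts, and changed sign at -0.0077 with no filter in the first, and at -0.0016 (DESeq2 size factors), -0.0025 (DESeq2 Wald test) and -0.0029 (block) in the second. Psph ran from -0.22 to 0.056 in the first. The ratio of B4galt2 to Ccdc24 ran from -0.25 to 0.23, -0.053 to 0.11 and -0.24 to 0.24 over the 3 contrasts, and that of B4galt2 to Gm17114 from -0.084 to 0.42, -0.11 to 0.059 and -0.14 to 0.37. The causes were not tested. Low counts limit B4galt2, the row named Aldh1l2, and the rows read as Pck2 and Aldh1l1.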
